A study of Mus musculus with 3 samples.

Results

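The genes described here code for histone deacetylases and for proteins that set, remove or read DNA methylation or are related to these. They were taken as a list of 35 symbols: 11 classical histone deacetylases, 7 sirtuins, 3 DNA methyltransferases, 2 Uhrf genes, 3 Tet genes, 3 Gadd45 genes and 6 Mbd genes. Every one of the 35 had a row among the 32531 genes counted. Ribosome-bound RNA was taken from dentate gyrus. The adult C57BL/6J mice carried Penk-EGFP/Rpl10a (Penk-TRAP, NIDA186) and had received no treatment. Here Penk, which codes for proenkephalin, directs where the EGFP-tagged ribosomal protein Rpl10a is made, and ribosomes carrying the tag are pulled down. The 3 libraries were all immunopurified samples of 1 group, replicates 1 to 3, with 5348761, 19195559 and 11059982 counts on genes. Input RNA was not analysed here, and the data therefore give levels within the purified RNA and no enrichment. Separate animals are not named in the labels for the replicates, and p-values then measure only the spread between these libraries, which may be technical.

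Histone deacetylases remove acetyl groups from histone tails and other proteins, and mostly act inside corepressor complexes. Class I enzymes are nuclear, class IIa enzymes shuttle between nucleus and cytoplasm in response to calcium signals, and sirtuins need NAD as a cosubstrate. In DNA, methyl groups are set on cytosines of CpG dinucleotides by the Dnmt enzymes, oxidised by the Tet enzymes and read by proteins with a methyl-CpG-binding domain. In the dentate gyrus several of these genes are known for roles in activity-dependent gene expression and in memory.

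Levels are given as CPM, the counts of a gene relative to the library total, scaled between libraries, divided by the exon length of the gene in kb. The median tested gene stood at 5.54, 6.36 and 6.16 CPM per kb in replicates 1 to 3. Markers of the dissected tissue were present but uneven. Of 9 dentate granule cell markers 5 could be tested and 3 lay above the median tested gene, Stxbp6, Prox1 and Rfx3. Others were nearly missing from single libraries, with C1ql3 at 0, Calb1 at 2 and Tdo2 at 1 counts in replicate 1 and Plk5 at 3 in replicate 3. Of 7 pan-neuronal markers 5 lay above it. Glial RNA was present too, but unevenly by gene. The 8 oligodendrocyte markers summed to 878, 739 and 1210 CPM, with Opalin at 0 counts in replicates 1 and 2. In replicate 1 Mog had 4, Mag 5 and Cldn11 4 counts. The 7 astrocyte markers summed to 3075, 1367 and 3233 CPM, of which Slc1a2 alone had 2874, 1228 and 2796. Aldh1l1 had 23, 3 and 14 counts, Gja1 0, 296 and 129, and Gfap 35, 136 and 474. Slc1a3, Aldoc and Aqp4 had at least 105 counts in each library. Microglial markers summed to 6.84, 7.90 and 39.1 CPM, with 6 of 8 genes at 0 counts in replicate 1. In bulk RNA, fewer cells of a type and less RNA per cell cannot be told apart.

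Members were detected unevenly. At least 10 counts were reached by 22 of 35 members in replicate 1, 33 in replicate 2 and 28 in replicate 3. Over all genes the numbers were 8795, 14252 and 12019, in the same order of libraries. With all libraries thinned to the total of replicate 1, the members' numbers were 22, 28 and 26, and those of all genes 8795, 12289 and 10968. The order of the libraries thus held at equal depth, for the members as for all genes. No count at all was found for 7 members in replicate 1, namely Sirt3, Sirt6, Sirt7, Dnmt3b, Uhrf1, Gadd45a and Gadd45b. That is 20% of the members, beside 23.8% of all genes with a length and at least 10 counts. In replicate 3 the members at 0 were Dnmt3b and Gadd45a, and replicate 2 had none. Together the members took 0.241, 0.170 and 0.201% of gene counts.

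**Figure D1:**
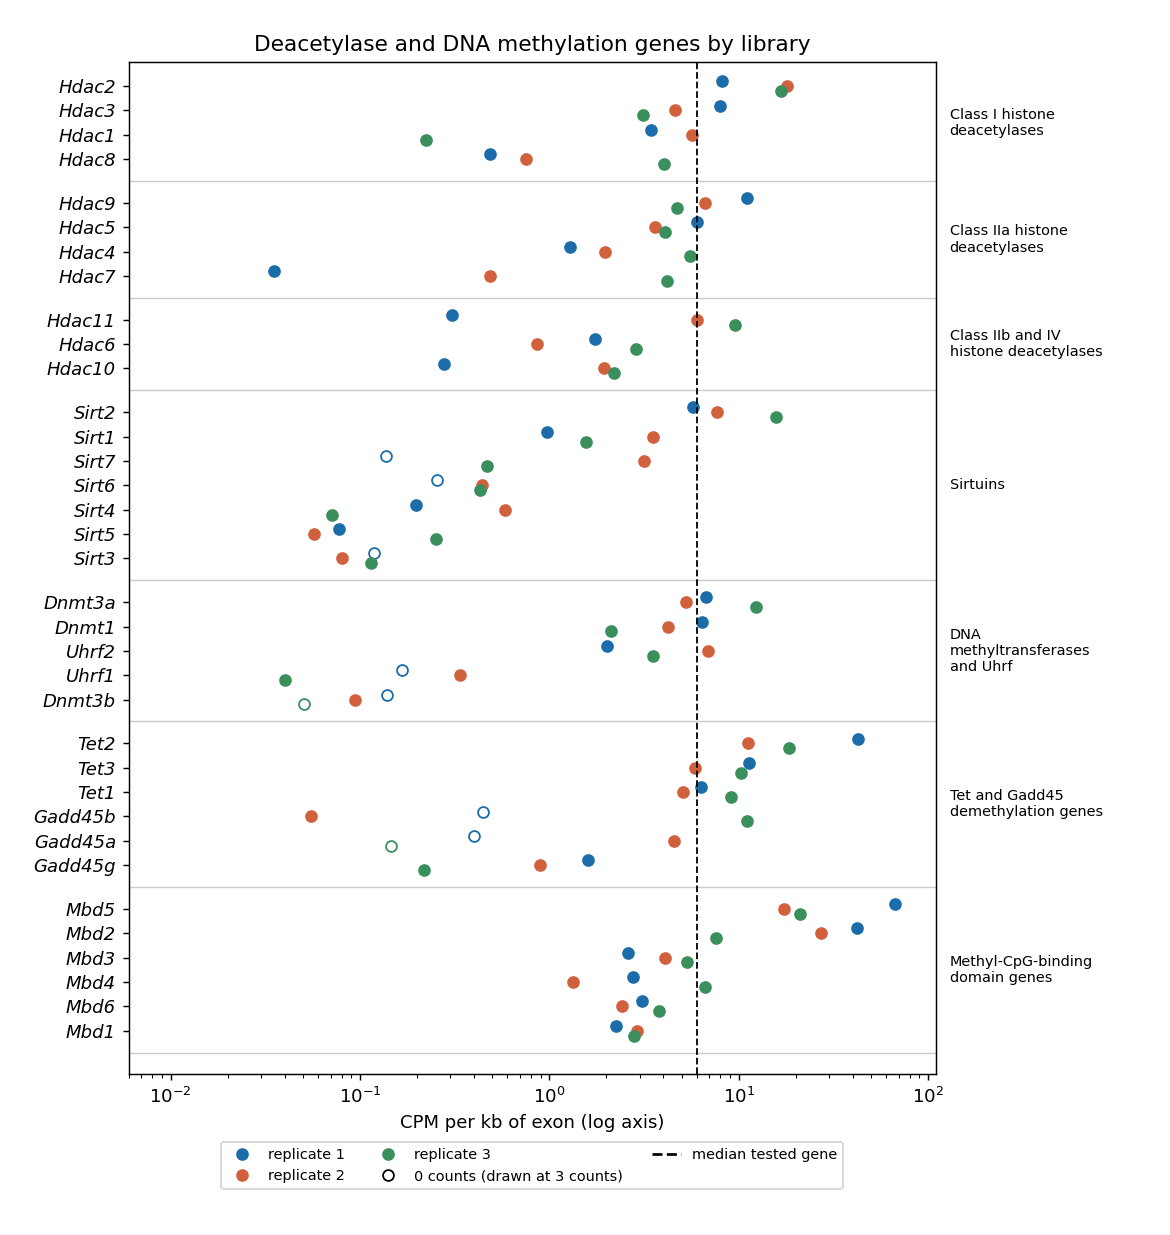
CPM per kb of exon (log axis) of all 35 members in each library, grouped by role and ordered by mean level; filled points are replicates 1 to 3, open points are counts of 0 drawn at the level of 3 counts, and the dashed line is the mean over libraries of the median tested gene. Mbd5, Mbd2 and Tet2 lie to the right of the line in all 3 libraries, while most sirtuins, Dnmt3b, Uhrf1 and Gadd45g lie well to the left.

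The filter on low counts passed 22 of the 35 members, and each was set against the median tested gene of its library with limma. In this test a gene is called when its log2 difference exceeds 1 beyond error, with Benjamini-Hochberg adjustment over 7924 genes. None of the 22 was called above and none below. Over all tested genes 9.76% were called above and 3.74% below. By limma with no log2 threshold 3 members were called above and 1 below, beside 20.7% and 11.8% of all tested genes. At an unadjusted p under 0.05 of the thresholded test the members' numbers were 1 and 0, beside 14.7% and 9.21%. The median level of the 22 was -0.53 on the log2 scale, beside -0.14 for all tested genes. In all 3 libraries 5 of the 22 lay above the median gene and 7 below it, beside 2468 and 2360 of the 7924 tested genes. Over the 35 members, whether tested or not, the median level was -1.47, -0.84 and -0.70 in replicates 1 to 3, beside -2.05, -1.12 and -1.26 for all genes with at least 10 counts. These genes as a set were thus neither among the abundant transcripts nor at the floor.

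**Figure D2:**
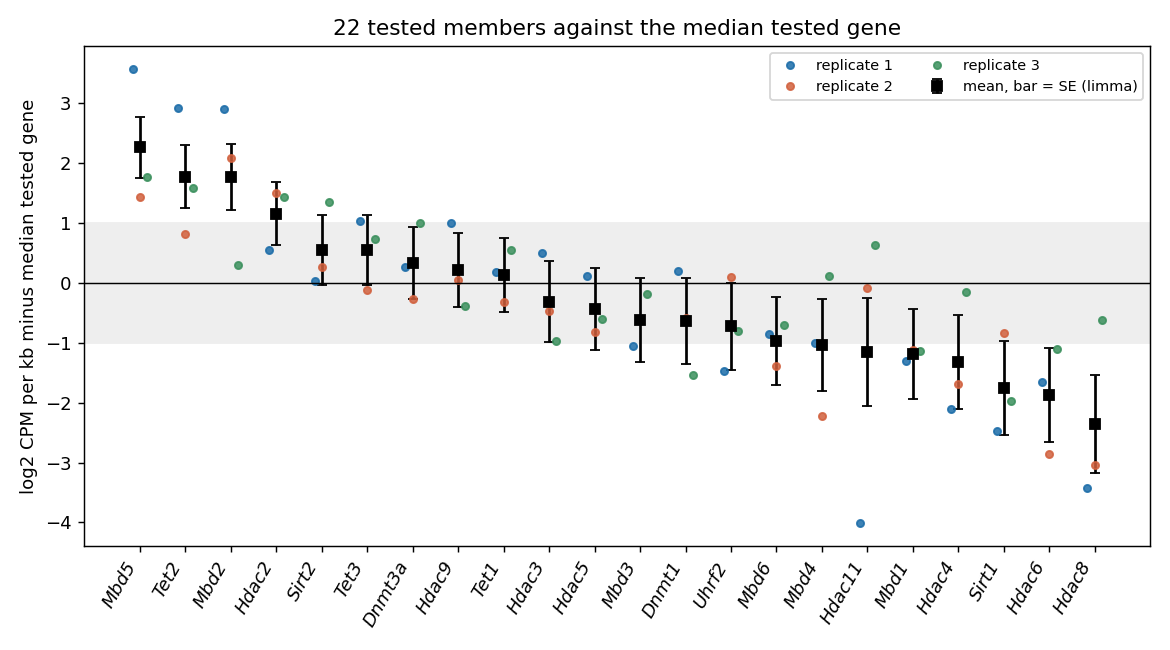
Difference in log2 CPM per kb between each of the 22 tested members and the median tested gene, ordered by the mean; squares with bars are means with the limma standard error, coloured points are the 3 libraries, and the grey band marks the log2 threshold of 1. Means run from 2.27 for Mbd5 to -2.36 for Hdac8, and the libraries of 1 gene often lie more than 1 log2 unit apart.

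Among the methyl-CpG-binding domain genes, Mbd5 had the highest mean of all 35 members, though Mbd2 and Hdac2 exceeded it in replicate 2. The encoded protein carries a methyl-CpG-binding domain but does not itself bind methylated DNA, and haploinsufficiency of the human gene causes a neurodevelopmental disorder. Mbd5 (chromosome 2, 48949508 to 49325405, plus strand, GRCm38) had 66.8, 17.4 and 21.1 CPM per kb from 5559, 7815 and 4852 counts, a mean of 35.1 ± 27.5 (SD, n = 3). Replicate 1 stood well above the other libraries. Its level was 2.27 on the log2 scale above the median gene (SE 0.51, adjusted p = 0.0786, limma), higher in 3 of 3 libraries but short of the threshold. The call was made with the longest transcript as length (3.01, adjusted p = 0.00545), with a filter of 10 counts in 2 of 3 libraries (2.98, adjusted p = 0.0150) and without replicate 1 (2.10, adjusted p = 0.0442). Annotated exons of Mbd5 add up to 19632 bases against 8543 in the longest transcript, so the level per kb depends on which length is used.

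The stretch before the Mbd5 start site is shown because this gene had the highest mean of the set. The RefSeq table of promoters (GRCm38.p6) places it at chr2:48949258-48949507, plus strand, and CpG dinucleotides are in capitals.
Mbd5: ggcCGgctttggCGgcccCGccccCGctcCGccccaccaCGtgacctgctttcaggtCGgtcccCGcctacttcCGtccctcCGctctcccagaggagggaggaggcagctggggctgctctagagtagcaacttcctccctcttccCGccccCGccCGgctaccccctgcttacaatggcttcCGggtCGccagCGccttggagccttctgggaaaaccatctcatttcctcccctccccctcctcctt

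Mbd2, a reader that binds methylated CpG and recruits the NuRD deacetylase complex, followed with 42.0, 27.2 and 7.59 CPM per kb (25.6 ± 17.3, SD, n = 3). Its level was 1.77 (SE 0.55, adjusted p = 0.312, limma), and replicate 3 lay far below the other libraries. The remaining Mbd genes had lower mean levels. Mbd3, the NuRD subunit that has largely lost affinity for methylated DNA, had 2.61, 4.06 and 5.34 CPM per kb. Mbd4, a glycosylase that repairs mismatches at CpG sites, had 2.77, 1.34 and 6.66, and 5% of its exon length overlaps an antisense transcript. Mbd6, the close relative of Mbd5, had 3.07, 2.42 and 3.78 CPM per kb. Mbd1 had 2.25, 2.91 and 2.78 CPM per kb, the smallest spread of any member, with a log2 range of 0.37. Its counts of 64, 447 and 218 did not depart from the library sizes beyond sampling noise (adjusted p = 0.157, Poisson chi-square test). On the log2 scale per kb Mbd5 exceeded Mbd6 by 4.43, 2.82 and 2.47 in replicates 1 to 3, and Mbd2 exceeded Mbd3 by 3.97, 2.72 and 0.50.

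Other proteins bind methylated CpG through zinc fingers or carry related domains. Of these, Zbtb4 had 12.7 ± 4.37 CPM per kb (SD, n = 3), Zbtb38 had 4.22, 12.8 and 16.1, and Setdb1, a histone methyltransferase with a domain of this kind, was lowest at 2.39 ± 0.381. None of these 3 was called (limma).

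Among the demethylation genes, the Tet family was counted in every library, while Gadd45a and Gadd45b each had nearly all their counts in 1 library. Tet enzymes oxidise methylated cytosine and so start its removal. Tet2 (chromosome 3, 133463679 to 133545139, minus strand) had 42.4, 11.2 and 18.5 CPM per kb (24.1 ± 16.3, SD, n = 3), Tet3 11.4, 5.89 and 10.3, and Tet1 6.33, 5.10 and 9.07. The order Tet2, Tet3, Tet1 was the same in all 3 libraries. Tet2 exceeded Tet3 by 1.90, 0.93 and 0.84 on the log2 scale per kb, and exceeded Tet1 by 2.74, 1.14 and 1.03. Tet3 exceeded Tet1 by only 0.85, 0.21 and 0.19. Of the summed CPM per kb of the family, Tet2 made up 70.6, 50.6 and 48.8%. Against the median gene Tet2 lay at 1.77 (SE 0.52, adjusted p = 0.288, limma), Tet3 at 0.55 and Tet1 at 0.14, with no call. Without correction for length Tet2 and Tet3 were called above the median gene (3.45 and 2.21, adjusted p = 4.88e-05 and 0.0383, limma), as were 14.1% of all tested genes. In that fit no member was called below, beside 5.21% of all tested genes.

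Gadd45 proteins are small stress and activity-induced factors that have been linked to DNA repair and local demethylation. Each of the 3 genes had its largest share of the family in a different library. Gadd45a (chromosome 6, 67035096 to 67037457, minus strand) had 0, 184 and 0 counts. Gadd45b (chromosome 10, 80930073 to 80932204, plus strand) had 0, 2 and 206 counts. Gadd45g (chromosome 13, 51846678 to 51848468, plus strand) had 8, 24 and 3 counts. A count of 0 still allows 0.401 CPM per kb of Gadd45a and 0.445 of Gadd45b in replicate 1, and 0.146 of Gadd45a in replicate 3, a limit that covers counting error only. Against these, Gadd45a reached 4.55 CPM per kb in replicate 2 and Gadd45b 11.1 in replicate 3. None of the 3 genes passed the filter, so their levels were not tested. For Gadd45a, 19.1% of the exon length overlaps a transcript on the opposite strand. Whether the counting used strand was not stated, so reads of both cannot be told apart.

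The promoters of the Gadd45 genes are shown because each of these genes led its family in a different library. They give the bases before the RefSeq start site, 5′ to 3′ on the gene's strand, with CpG dinucleotides in capitals, at chr6:67037408-67037657 (minus), chr10:80929841-80930090 (plus) and chr13:51846425-51846674 (plus), GRCm38.p6.
Gadd45a: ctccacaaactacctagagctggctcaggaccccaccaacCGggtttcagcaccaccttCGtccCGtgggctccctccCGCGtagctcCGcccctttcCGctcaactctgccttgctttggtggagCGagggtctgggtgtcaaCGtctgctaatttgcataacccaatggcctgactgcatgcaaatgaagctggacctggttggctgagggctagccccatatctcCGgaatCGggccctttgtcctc
Gadd45b: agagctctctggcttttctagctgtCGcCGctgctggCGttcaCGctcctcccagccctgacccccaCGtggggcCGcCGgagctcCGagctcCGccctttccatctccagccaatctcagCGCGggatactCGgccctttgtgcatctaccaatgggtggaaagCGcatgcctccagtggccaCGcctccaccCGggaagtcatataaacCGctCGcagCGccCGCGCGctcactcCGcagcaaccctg
Gadd45g: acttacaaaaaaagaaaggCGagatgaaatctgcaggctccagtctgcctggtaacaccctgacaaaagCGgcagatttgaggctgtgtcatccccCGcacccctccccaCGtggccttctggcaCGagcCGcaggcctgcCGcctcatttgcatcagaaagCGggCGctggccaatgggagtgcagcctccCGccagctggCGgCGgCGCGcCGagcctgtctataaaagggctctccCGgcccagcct
In the 250 bases shown there are 11 CpG for Gadd45a, 22 for Gadd45b and 16 for Gadd45g. Over the whole window the TATA box letters TATAAA or their complement were found in Gadd45b and Gadd45g and not in Gadd45a. That motif was found in 5 of 30 member promoters (16.7%), in 6.34% of promoters of tested genes and in 14.2% of those of all genes.

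Among the enzymes that set DNA methylation, Dnmt3a, the de novo methyltransferase, and Dnmt1, which copies methylation after replication, were found in every library, and Dnmt3b was nearly absent. Dnmt3a (chromosome 12, 3806007 to 3914443, plus strand) had 6.74, 5.29 and 12.4 CPM per kb (8.15 ± 3.76, SD, n = 3). Dnmt1 (chromosome 9, 20907209 to 20959888, minus strand) had 6.39, 4.22 and 2.12 CPM per kb (4.24 ± 2.13). Dnmt3a was above Dnmt1 in each library, by log2 differences of only 0.07 and 0.32 in replicates 1 and 2 and 2.53 in replicate 3. The mean difference of 0.98 was smaller than its SD of 1.35. With the longest transcript as length it was 1.43 and without correction for length 2.15, both above that SD. Dnmt3b (chromosome 2, 153649450 to 153687730, plus strand) had 0, 11 and 0 counts. Dnmt3a was thus at least 48.7-fold higher than Dnmt3b per kb in replicate 1 and at least 247-fold higher in replicate 3, taking 3 counts in the library as the floor, and 56.3-fold higher in replicate 2. Dnmt3a has an annotated pseudogene copy, Dnmt3a-ps1, so its counts are uncertain to the extent that reads match both.

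The upstream stretches of Dnmt3a (chr12:3806730-3806979) and Dnmt3b (chr2:153649199-153649448), both on the plus strand in GRCm38.p6, are set side by side as those of the highest and the lowest methyltransferase gene, with CpG in capitals.
Dnmt3a: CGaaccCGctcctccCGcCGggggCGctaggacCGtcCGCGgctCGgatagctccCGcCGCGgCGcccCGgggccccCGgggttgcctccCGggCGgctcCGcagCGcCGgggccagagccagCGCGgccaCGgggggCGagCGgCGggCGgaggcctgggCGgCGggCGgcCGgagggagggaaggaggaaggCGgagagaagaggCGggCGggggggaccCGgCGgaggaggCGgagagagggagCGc
Dnmt3b: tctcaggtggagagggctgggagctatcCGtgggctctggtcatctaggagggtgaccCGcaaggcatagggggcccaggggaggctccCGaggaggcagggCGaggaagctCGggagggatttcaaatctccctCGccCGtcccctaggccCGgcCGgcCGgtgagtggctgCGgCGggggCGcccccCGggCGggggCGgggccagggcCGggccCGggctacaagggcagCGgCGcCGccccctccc
They hold 38 and 21 CpG in 250 bases.

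Uhrf1 brings Dnmt1 to newly replicated DNA and belongs to dividing cells, whereas Uhrf2, a relative with the same domains, is also expressed in cells that no longer divide. Uhrf2 had 73, 1348 and 354 counts, or 2.0, 6.85 and 3.53 CPM per kb. Uhrf1 had 0, 33 and 2 counts. Uhrf2 was at least 12.1-fold higher per kb in replicate 1, against a floor of 3 counts, and 20.3-fold higher in replicate 2. In replicate 3 the 2 counts of Uhrf1 were under the floor of 3, and no fold is given. The 10 cycling cell markers summed to 124, 53.0 and 89.9 CPM, with 4, 1 and 3 of them at 0 counts. Mki67 had the highest mean of them, at 8.13, 2.13 and 3.67 CPM per kb, but Mcm6 exceeded it in replicate 2 (4.26) and Mcm2 in replicate 3 (4.91). Their part in the levels of Dnmt1 and Uhrf1 was not tested.

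Summed over the families, Tet genes had 60.2, 22.2 and 37.9 CPM per kb and Dnmt genes 13.1, 9.61 and 14.5. The ratio of the Tet to the Dnmt sum was 4.58, 2.31 and 2.61 in replicates 1 to 3 (3.17 ± 1.23, SD, n = 3), above 1 in each library.

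**Figure D3:**
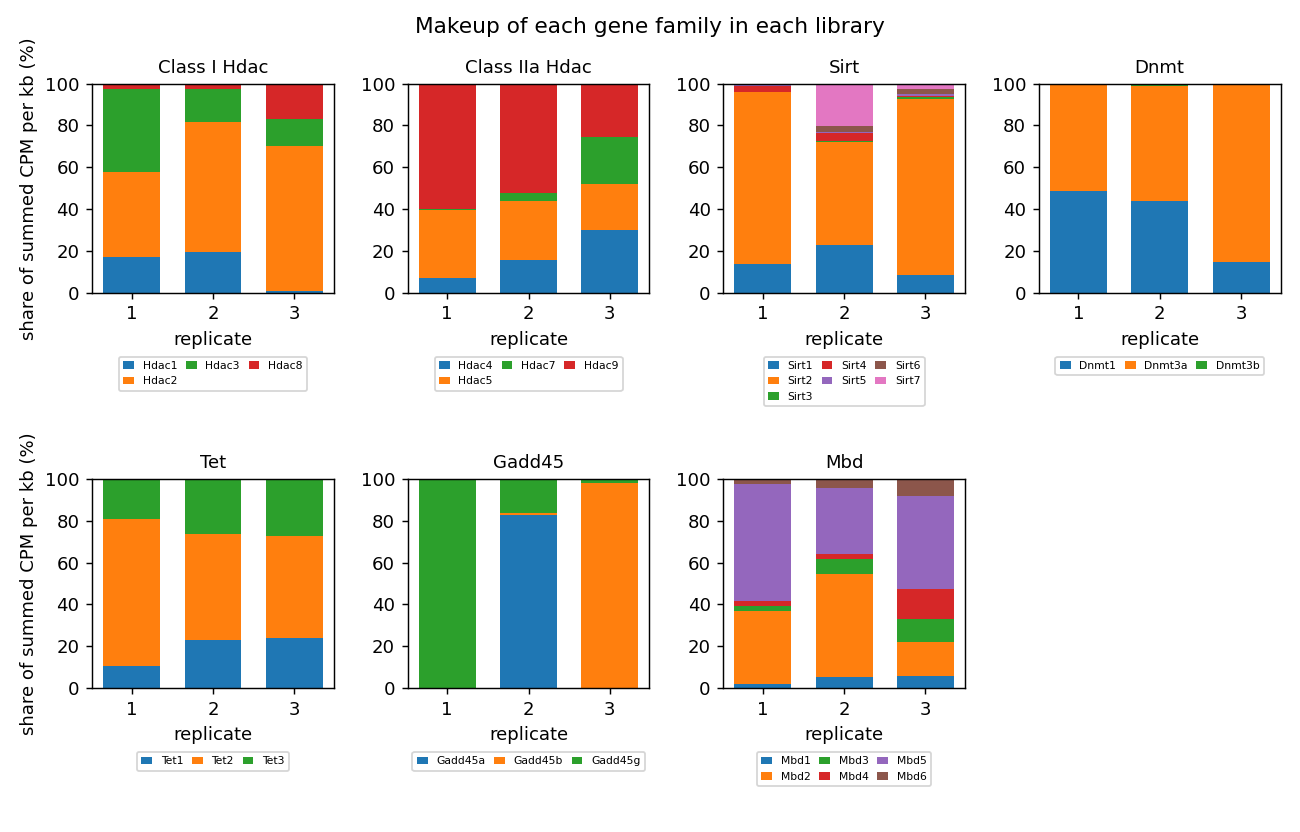
Share of each gene in the summed CPM per kb of its family (%), with 1 stacked bar for each replicate. Tet bars have the same order of genes in all 3 libraries, Dnmt1 shrinks to 14.6% in replicate 3, and the Gadd45 bars are filled by Gadd45g, Gadd45a and Gadd45b in replicates 1, 2 and 3.

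Class I deacetylases form the catalytic core of the Sin3, NuRD, CoREST and NCoR complexes. Hdac2 (chromosome 10, 36974544 to 37001889, plus strand), the form known to restrain synaptic plasticity genes in neurons, had the highest mean per kb of all 11 deacetylases. In replicate 1 Hdac9 was above it (11.1 against 8.12 CPM per kb), and without correction for length Hdac9 had the higher level (1.69 against 0.92). It had 8.12, 18.1 and 16.6 CPM per kb (14.3 ± 5.38, SD, n = 3) from 154, 1850 and 870 counts. Its level was 1.16 above the median gene (SE 0.52, adjusted p = 0.742, limma), higher in 3 of 3 libraries and not called. Hdac1, its close paralog in the same complexes, had 50, 444 and 9 counts, or 3.42, 5.63 and 0.224 CPM per kb, and did not pass the filter. Hdac2 exceeded Hdac1 by 1.23, 1.67 and 5.96 on the log2 scale per kb, so the size of the difference rests on the 9 counts of Hdac1 in replicate 3. Hdac3, the subunit of the NCoR complex, had 7.91, 4.58 and 3.12 CPM per kb (5.20 ± 2.45). Hdac8, an X-linked enzyme that deacetylates cohesin, had 0.487, 0.749 and 4.01 CPM per kb and the lowest level of any tested member (-2.36, SE 0.82, adjusted p = 0.237, limma). In replicate 3 Hdac8 was at the level of Hdac3, while in the other libraries it was 2.56 to 3.94 lower on the log2 scale.

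The stretch before the start of Hdac2, the deacetylase gene with the highest mean, lies at chr10:36974294-36974543, plus strand, GRCm38.p6, and has 27 CpG (capitals).
Hdac2: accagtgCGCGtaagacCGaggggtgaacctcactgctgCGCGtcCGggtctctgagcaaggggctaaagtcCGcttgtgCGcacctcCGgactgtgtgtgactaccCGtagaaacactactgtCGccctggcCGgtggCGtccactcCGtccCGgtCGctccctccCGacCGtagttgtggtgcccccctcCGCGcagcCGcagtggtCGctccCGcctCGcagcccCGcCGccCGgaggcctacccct

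Class IIa deacetylases bind Mef2 transcription factors and are held in the cytoplasm by proteins of the Ywha family after phosphorylation by calcium-dependent kinases. Hdac9 (chromosome 12, 34047580 to 34917095, minus strand) led the class in mean level with 11.1, 6.61 and 4.74 CPM per kb (7.49 ± 3.27, SD, n = 3). Hdac5 had 6.04, 3.61 and 4.06 CPM per kb (4.57 ± 1.29), and its libraries lay within a factor of 1.67. Hdac4 had 1.28, 1.97 and 5.54 CPM per kb, with 22.4% of its exon length overlapped by a noncoding transcript on the opposite strand. Hdac7 had 1, 75 and 331 counts, or 0.0349, 0.485 and 4.19 CPM per kb. In replicate 3 all 4 genes were within 4.06 to 5.54 CPM per kb, whereas in replicate 1 Hdac9 made up 60.2% of the class and Hdac7 0.189%. Hdac7 is known for its role in endothelial cells. The 8 endothelial markers summed to 60.1, 229 and 383 CPM, and Hdac7 had 0.236, 3.27 and 28.3 CPM. The markers did not move alike from replicate 2 to 3: Flt1 went from 89.8 to 227 CPM, whereas Pecam1 went from 29.1 to 11 and Kdr from 16.9 to 2.57. Cldn5 and Pecam1 were at 0 counts in replicate 1, and Flt1 had 73, 2058 and 2648 counts. The part of endothelial RNA in the Hdac7 counts was not tested.

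Hdac6, the X-linked class IIb enzyme that deacetylates tubulin, had 1.74, 0.856 and 2.87 CPM per kb (level -1.87, SE 0.79, adjusted p = 0.416, limma). Hdac10, the other class IIb enzyme, which acts on polyamines, had 4, 151 and 87 counts and was not tested. Hdac11, the single class IV enzyme, had 5, 529 and 428 counts, or 0.306, 6.00 and 9.51 CPM per kb. Its place among tested genes moved from the percentile of 3.38 in replicate 1 to 48.4 and 61.9 in replicates 2 and 3. Its level of -1.16 (adjusted p = 0.801, limma) turned to 0.76 without replicate 1 (adjusted p = 0.909, limma). Transcripts on the opposite strand overlap 17.9% of the Hdac11 exon length.

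Summed over the 11 genes, classical deacetylases had 40.7, 50.5 and 57.1 CPM per kb, with Hdac2 at 19.9, 35.8 and 29.1% of the sum. Class IIa over class I gave a ratio of 0.926, 0.437 and 0.773, below 1 in each library. That direction holds only per kb. Without division by length, a check added after the data were seen, the ratio was 2.87, 1.33 and 2.06.

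Sirtuins were carried by Sirt2, a mainly cytoplasmic deacetylase abundant in myelinating cells and also made by neurons. Sirt2 (chromosome 7, 28766735 to 28788661, plus strand) had 5.71, 7.67 and 15.8 CPM per kb (9.73 ± 5.35, SD, n = 3) and made up 82.1, 49.4 and 84.5% of the family sum. Its level of 0.55 (SE 0.58, adjusted p = 0.985, limma) was not called. Oligodendrocyte markers were present in each library, with Mbp, a structural protein gene of myelin, at 38.3, 36.6 and 44.9 CPM per kb. In replicates 1 to 3 Sirt2 had 28.8, 38.6 and 79.6 CPM, and the sum of the 8 oligodendrocyte markers was 878, 739 and 1210 CPM. Both were highest in replicate 3, but from replicate 1 to 2 Sirt2 rose and the sum fell. The part of oligodendrocyte RNA in the Sirt2 level was not tested. Sirt1, the nuclear sirtuin, had 0.973, 3.54 and 1.56 CPM per kb and lay below Sirt2 by 2.52, 1.11 and 3.32 on the log2 scale. Sirt7, the nucleolar sirtuin, had 0, 374 and 28 counts. The nuclear Sirt6 had 0, 28 and 14 counts. The mitochondrial sirtuins were also sparsely counted, with Sirt3 at 0, 11 and 8 counts, Sirt4 at 2, 32 and 2, and Sirt5 at 2, 8 and 18. Sirt3 and Sirt6 were among the 3 members, with Mbd1, whose counts did not depart from the library sizes beyond sampling noise (adjusted p = 0.228 and 0.0786, Poisson chi-square test), but both had few counts. Of the Sirt3 exon length, 12.7% overlaps the neighbouring genes Psmd13 and Ric8a on the opposite strand. The sum of the deacetylases exceeded that of the sirtuins in each library, by factors of 5.85, 3.25 and 3.06.

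Within families 21 differences between members were computed and read in each library (log2 CPM per kb). In 11 the sign was the same in all 3 libraries, and in 10 of these the mean also exceeded its SD over libraries. Besides those already given, Hdac11 exceeded Hdac10 by 0.09, 1.60 and 2.09. With 3 libraries the smallest p of an exact two-sided sign-flip permutation test is 0.25, and each of the 11 had an adjusted p of 0.477. The 10 pairs whose sign differed between libraries included Hdac5 and Hdac4 (2.23, 0.87 and -0.44), Hdac4 and Hdac9 (-3.11, -1.74 and 0.22), Hdac6 and Hdac10 (2.45, -1.18 and 0.36) and Mbd1 and Mbd4 (-0.30, 1.10 and -1.25). In the order of the 22 tested members by level, only 2 of 21 neighbouring pairs differed with the same sign in every library and a mean above the SD, Mbd5 over Tet2 (0.49 ± 0.26, SD, n = 3) and Hdac2 over Sirt2 (0.60 ± 0.58). With the longest transcript as length the levels were 1.17 for Hdac2 and 1.35 for Sirt2, so that order turned. Neighbours were formed by sorting on these means, so the sign of each mean was fixed in advance. The order between the other neighbours is within the spread between libraries.

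**Figure D4:**
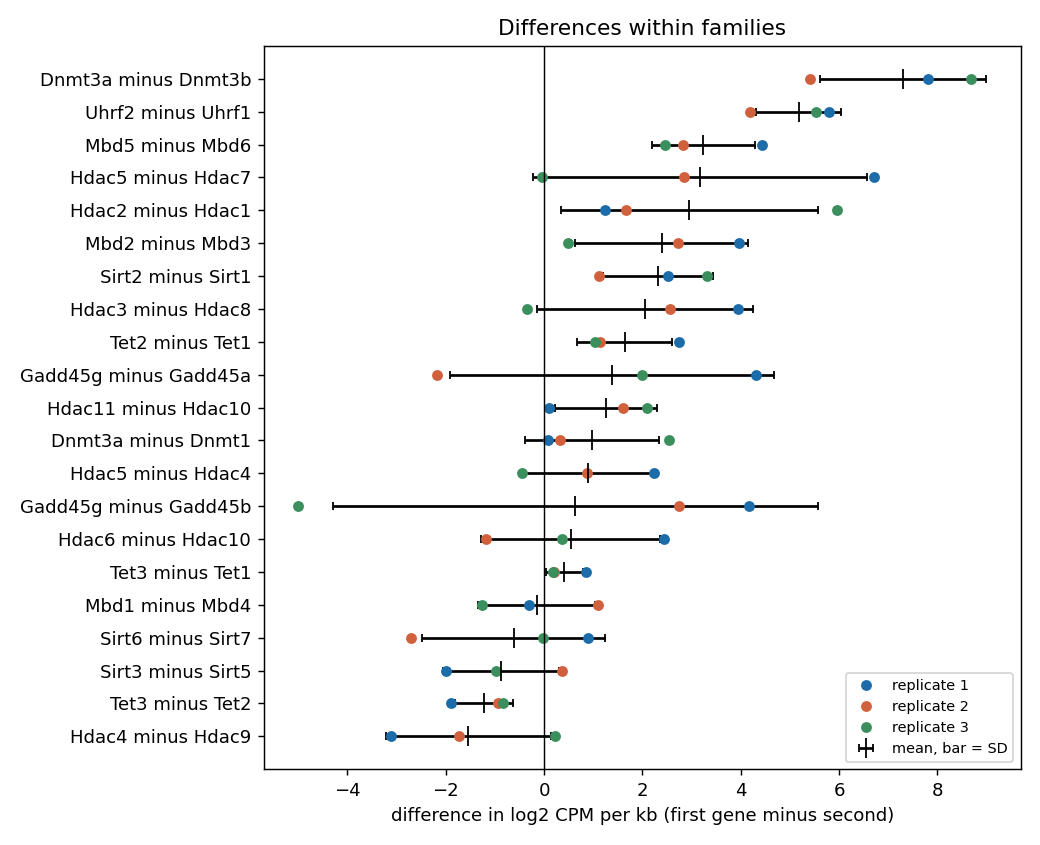
Differences in log2 CPM per kb (first gene minus second) for 21 pairs; coloured points are the 3 libraries and black marks with bars the mean and SD. Dnmt3a over Dnmt3b and Uhrf2 over Uhrf1 lie furthest to the right, with values that depend on the prior count where the lower gene had 0 counts, and pairs with Gadd45b, Hdac7 or Sirt7 spread widely.

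Counts of the same member differed between libraries by more than counting error for 32 of 35 members, beside 96.0% of 15405 genes with at least 10 counts (Poisson chi-square test, Benjamini-Hochberg adjustment). The test compares these libraries and not conditions, and the members' share of 91.4% is near that of all genes. The median log2 range over libraries was 1.52 for the 22 tested members and 1.82 for all tested genes. Replicate 1 was the lowest library for 18 of 35 members (51.4%), beside 56.8% of 13569 genes with a length and at least 10 counts, and replicate 3 the highest for 15 (42.9%), beside 32.1%.

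The partners of these enzymes are given beside the members. Their lists were chosen with earlier results of these data known, so the numbers called describe these genes only. Of 98 listed companion genes with a row, 70 passed the filter. Of these, 13 were called above the median gene and 1 below (limma, same fit), beside 9.76% and 3.74% of all tested genes. DESeq2 size factors gave the same numbers. Without replicate 1 there were 23 above among 81 tested, beside 14.6% of all tested genes. Without replicate 2 there were 8 above among 67, beside 7.21%. Among 27 corepressor subunits 2 of 20 tested lay above, Ncor1, the scaffold that activates Hdac3, at 52.7 ± 9.24 CPM per kb (level 3.11, adjusted p = 0.00186) and the NuRD helicase gene Chd3 at 39.2 ± 13.6 (level 2.64, adjusted p = 0.0149). Sin3a followed at 24.1 ± 11.6 without a call, and Brms1 had 0 counts in each library. Ncor1 was thus higher than Hdac3, with 42.4, 55.5 and 60.3 against 7.91, 4.58 and 3.12 CPM per kb, and the ranges did not overlap.

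Of the class IIa partners 7 of 10 tested lay above the median gene, beside 9.76% of all tested genes. This list alone gave 7 of the 13 companion genes called above. Camk2a, a calcium-dependent kinase of excitatory neurons, reached 1320 ± 554 CPM per kb, Ywhaz 1106 ± 372 and Ywhae 592 ± 271 (SD, n = 3, adjusted p = 2.2e-06, 2.2e-06 and 2.5e-06, limma), whereas Mef2b had 0 counts. Among acetyltransferases and coactivators, which oppose the deacetylases, 3 of 14 tested were called above, namely Ncoa1 at 38.4 ± 2.66 CPM per kb, Kat6a at 34.5 ± 16.2 and Ep300 at 31.4 ± 12.3. Crebbp had the highest mean at 45.9 ± 47.4, with 101 CPM per kb in replicate 1 and 19.3 and 17.9 in the others, and was not called (adjusted p = 0.0621). Kat8, the lowest, had 0, 104 and 18 counts.

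Among helpers of DNA methylation, of base excision and demethylation, and of NAD supply, 0 of 18 tested genes were called above by limma with its log2 threshold. At an unadjusted p under 0.05 there were 2, Mat2a and Nmnat2. Mat2a, which makes the methyl donor S-adenosylmethionine, was the highest of the methylation cofactor genes at 27.1 ± 4.89 CPM per kb, followed by Usp7 at 11.9 ± 1.21. Trdmt1 had 442, 151 and 7 counts and did not pass the filter, and Dnmt3l had 0 counts in each library. Of 15 base excision and demethylation helper genes 6 were tested and none called. Ogt, a Tet partner, at 20.6 ± 9.73 and Parp1 at 6.5, 14.6 and 24.1 CPM per kb were on top. Idh1 had 10.5 ± 8.76 and Neil2 had 0 counts. Among 10 genes of NAD supply, Nmnat2 stood at 25.3 ± 5.82 CPM per kb, Nampt at 1.26, 22.1 and 27.5, Sarm1 at 17.0, 2.99 and 2.77, and Nmnat3 had 0 counts.

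Promoters offered a property that the choice of members did not use. Of 35 members 30 had an entry in the RefSeq table, and Hdac1, Hdac3, Hdac10, Mbd1 and Mbd2 were not matched. In the 300 bases around the first listed start (250 before and 50 after), members held a median of 21.5 CpG, from 0 for Hdac9 and 2 for Dnmt1 to 46 for Dnmt3a, 47 for Sirt1 and 57 for Tet2. Tested genes held a median of 23 CpG and all genes 7. At least 15 CpG were found in 25 of 30 members (83.3%), beside 75.2% of 6245 tested genes and 35.2% of all 27025 genes. Members were therefore CpG-rich at their starts to about the extent of other expressed genes. The GC box GGGCGG, counted on both strands and itself holding a CpG, was found in 23 of 30 members (76.7%) and in 66.9% of tested genes. The E-box CACGTG was found in 5 of 30 members (16.7%) and in 10.3% of tested genes. The cyclic AMP response element TGACGTCA was found in no member window and in 3.65% of tested genes. Both of these motifs read the same on either strand and hold a CpG. Genes such as Hdac9, Dnmt1 and Dnmt3a have several starts, of which only the first listed was read.

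**Figure D5:**
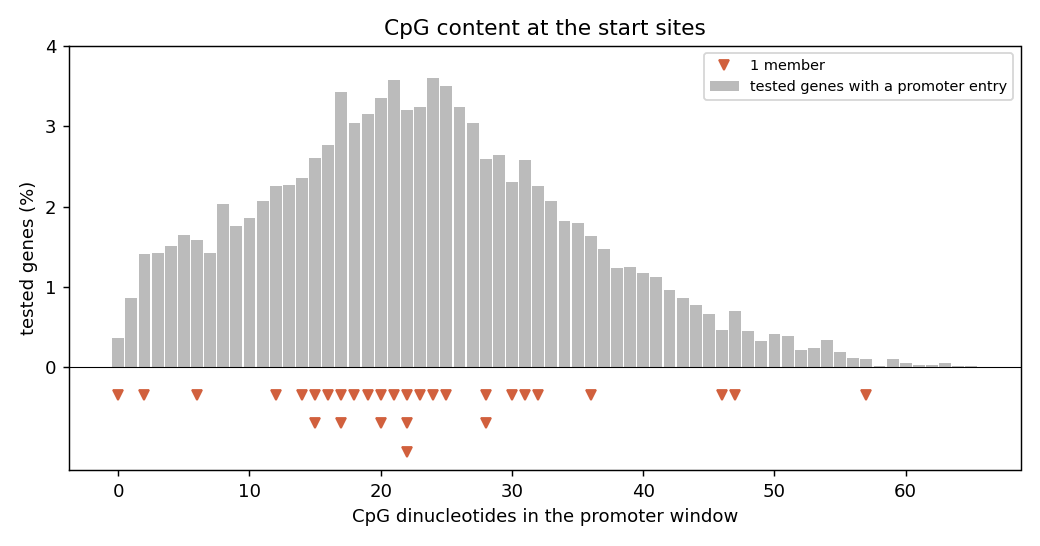
Number of CpG dinucleotides in the 300-base promoter window; grey bars give the percent of tested genes with a promoter entry at each number and each triangle below the axis is 1 of 30 members. Most members fall between 12 and 36 CpG within the bulk of tested genes, with Hdac9, Dnmt1 and Hdac8 at the low end and Tet2 at the high end.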

How the data were processed

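Dentate gyrus TRAP libraries were read as 3 replicates of 1 group. The deposited files hold raw read counts per gene symbol, 1 library each, per the file contents. STAR 2.0.0e, HTSeq and the build mm10 are listed in the submitters' processing notes. For annotation, strand setting and filters, no source used here gives any statement. Summary rows of the counter were dropped; 16.3, 38.2 and 21.1% of listed reads fell on genes, 50.7, 35.4 and 40.5% on no feature, 32.2, 24.8 and 37.5% on several places and 0.763, 1.60 and 0.873% were ambiguous.

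The members and gene lists were chosen with earlier results of these data known. From the counts, log2 CPM (edgeR 4.0.16, TMM factors 0.793, 1.19 and 1.06, prior count 2) was divided by union exon length (GENCODE vM21, GRCm38), and the submitters may have counted on another annotation; 93.1% of genes passing filterByExpr had a length and 7924 were tested with limma 3.58.1 (trend, TREAT, log2 threshold 1, Benjamini-Hochberg at 0.05) in R 4.3.3. This test per length departs from a plain CPM test because levels of different genes were compared. A Poisson chi-square test compared libraries and an exact sign-flip permutation test compared gene pairs. All members are described; of each other list the 3 highest and 1 lowest genes are named, plus genes called or at 0 counts, which were chosen after their values were seen. Some genes under this rule are given by count only, and the results of some list genes are not reported here. Alternatives were DESeq2 1.42.0 size factors, other filters, lengths, prior counts and thresholds, thinning, and each replicate left out. Both tests were tested on simulated data, limma with the same dispersion for every gene and chi-square with Poisson noise alone. The limma test (7839 genes) called 97% of levels set 8-fold above the median, 100% at 16-fold and 0% at the median. Smaller shifts and shifts below the median were not simulated, so these rates do not cover them. The chi-square test (7924 genes) called 100% of 4-fold changes and 0.168% of unchanged genes. In the real libraries 96.0% of 15405 genes departed from Poisson noise, so the chi-square rates hold for the simulated data only. A count of 0 allows up to 3 counts, or 0.707, 0.131 and 0.257 CPM, a limit that leaves out PCR duplication and covers counting error only. Figures used matplotlib 3.10.9.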

Additional observations from a re-analysis of the deposited data

How the results depend on the processing

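No paired analysis was possible because there is only 1 group. In replicate 1 13 of 35 members had under 10 counts, and at equal depth the other libraries still had fewer such members. Over all genes, 8795, 12289 and 10968 reached 10 counts at equal depth in replicates 1 to 3. Dropping the filter turned more signs than any other setting run.

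With no filter, which lowers the median gene, 4 of 35 members lay above it (Hdac2, Tet2, Mbd2 and Mbd5) and 4 below. The 4 below, Sirt3, Sirt5, Dnmt3b and Uhrf1, had failed the filter of the main fit. Of all genes 2699 (17.9%) lay above and 2533 (16.8%) below, and of the companions 35 and 5. The sign then turned for Hdac3 (1.62), Hdac4 (0.61), Hdac5 (1.5), Hdac6 (0.060), Hdac11 (0.78), Sirt1 (0.17), Dnmt1 (1.29), Mbd1 (0.74), Mbd3 (1.31), Mbd4 (0.89), Mbd6 (0.96) and Uhrf2 (1.21). With 10 counts in 2 of 3 libraries 1 of 27 tested members lay above, with 22 companions above and 0 below. Of all genes 1211 (11.2%) lay above and 50 (0.461%) below. Signs then turned for Hdac3 (0.41), Hdac5 (0.29), Dnmt1 (0.078) and Mbd3 (0.094). Without correction for length 3 members (Tet2, Tet3 and Mbd5, beside 14.1% of all genes) and 24 companions lay above, and Hdac4 (0.26) and Hdac5 (0.30) turned. With the longest transcript 1 member lay above (9.82% of all genes), and Tet1 (-0.21) and Uhrf2 (0.11) turned. With no log2 threshold 3 of 22 members lay above and 1 below (Hdac8), with 23 and 2 companions. Of all genes 1638 (20.7%) lay above and 933 (11.8%) below. Thinning turned Hdac9 (-0.025) and Tet1 (-0.10).

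Leaving out 1 replicate gave 0 to 1 members above and 0 to 1 below, among 21 to 27 tested. Companions numbered 8 to 23 above and 0 to 1 below. Of all genes 550 to 1522 (7.21 to 14.6%) lay above and 216 to 633 (2.55 to 6.07%) below. Without replicate 1, Mbd5 lay above and Sirt6, which had failed the filter of the main fit, below. Levels then turned positive for Hdac11 (range over the left-out replicates -1.92 to 0.76, under the filter without replicate 2), Mbd3 (-0.71 to 0.073) and Uhrf2 (-1.22 to 0.14). Without replicate 3 that of Hdac3 did (-0.31 to 0.15). Without replicate 1, 2 or 3, 30 of 35, 26 of 30 and 27 of 34 members varied between the libraries kept. These shares of 85.7, 86.7 and 79.4% stood beside 86.3, 87.8 and 83.2% of all genes. The pairs of constant sign numbered 12 to 16, a count that leaving out a library can only keep or raise. DESeq2 size factors and a prior count of 0.5 gave 0 member calls and turned no sign. The cause of these changes was not tested beyond what each setting does by construction.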
